A study of Homo sapiens with 17 samples.

Results

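The promoters of *RPS26*, *SMARCC2*, *BAZ2A*, *NACA*, *GPR182* and *ZBTB39* lie in a gene-dense stretch of chromosome 12 (GRCh38, 55706548 to 57927874) that formed 1 sub-network of promoter contacts. Members were the 6 genes, each of which had its promoter on 1 baited HindIII fragment. The 6 baits and the fragments that they contacted on chromosome 12 came to 137 of the 290 listed fragments of the region, 131 of which were partners that were no member bait. In all, the contact lists held 88413 fragments, 15982 of them baited. The region was selected on the number of listed contacts in each cell type, so the contact counts are given as a description and were not tested. The study compared naive with primed pluripotent stem cells (PSCs) of the human embryonic stem cell line H9 NK2, which are isogenic and model an earlier and a later stage of pluripotency. Naive PSCs were grown with PD0325901, CHIR99021, human LIF and the PKC inhibitor Go6983 on Matrigel, and primed PSCs in TeSR-E8 on Vitronectin, so the cell state cannot be told apart from its medium and coating. Promoter capture Hi-C (PCHi-C) was made from 2 replicates per cell type and deposited as 1 combined list for each, Hi-C from 1 library per cell type, and H3K4me1 CUT&RUN from 2 naive and 3 primed libraries. All samples came from 1 line. The study's methods call the PCHi-C and CUT&RUN replicates biological, but neither they nor the labels say that replicates came from separate cultures. The p-values therefore measure only the spread between these libraries.

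In PCHi-C, fragments that were near each other in fixed nuclei are ligated, and ligation products with a promoter are then enriched, so each contact joins a baited promoter fragment to another fragment. A promoter often reaches several distal fragments, and active or primed enhancers among them carry H3K4me1. The region holds genes of general cell function beside genes that are restricted to a few tissues. *RPS26* encodes a protein of the small ribosomal subunit and *NACA* encodes a chaperone subunit that binds new polypeptides at the ribosome. *SMARCC2* encodes BAF170, a scaffold subunit of the BAF chromatin remodelling complexes. *BAZ2A* encodes TIP5, which forms the NoRC remodelling complex with the ISWI ATPase SMARCA5 and is known for silencing ribosomal DNA. *GPR182* encodes a receptor found mainly in endothelium, and *ZBTB39* encodes a zinc finger protein with a BTB domain.

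The sequences here show where the contacts and the H3K4me1 differences described here fall, all on GRCh38. The first is the *ZBTB39* promoter, the bait with the most contacts in naive PSCs, as the 250 bases before the RefSeq start (chr12:57006547-57006796, minus strand). Capitals mark matches on either strand to a core of the binding motif of the architectural protein CTCF. The *ZBTB39* window held 2 matches, whereas 8.90% of 35116 RefSeq promoter windows of the same length held at least 1. The windows of *RPS26*, *BAZ2A* and *NACA* held none, but that of *NACA* lies outside its bait. *SMARCC2* and *GPR182* had no window to search. Both *ZBTB39* matches lie in copies of a repeated stretch, in a window with 75.6% G and C, and the 8.90% is not matched for this. A match is a run of letters and no evidence of binding.
ZBTB39 promoter: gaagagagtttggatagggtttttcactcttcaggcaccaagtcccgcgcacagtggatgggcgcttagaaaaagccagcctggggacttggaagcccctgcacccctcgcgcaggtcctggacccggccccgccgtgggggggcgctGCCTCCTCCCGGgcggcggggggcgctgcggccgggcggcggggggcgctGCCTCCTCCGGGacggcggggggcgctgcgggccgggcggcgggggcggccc
The next entries are a pair of short neighbouring HindIII fragments in an intron of *HSD17B6*, which were among the strongest partners of *ZBTB39* and *GPR182* in both cell types. They are printed whole on the plus strand, chr12:56753519-56753796 with 278 bases and chr12:56753797-56753961 with 165 bases, with the bases of the HindIII sites at their ends in capitals.
HSD17B6 intron, first fragment: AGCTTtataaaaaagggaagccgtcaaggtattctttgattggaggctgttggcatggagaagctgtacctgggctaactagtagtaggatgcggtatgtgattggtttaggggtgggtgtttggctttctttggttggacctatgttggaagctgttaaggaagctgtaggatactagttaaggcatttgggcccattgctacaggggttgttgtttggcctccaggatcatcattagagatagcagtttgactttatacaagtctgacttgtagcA
HSD17B6 intron, second fragment: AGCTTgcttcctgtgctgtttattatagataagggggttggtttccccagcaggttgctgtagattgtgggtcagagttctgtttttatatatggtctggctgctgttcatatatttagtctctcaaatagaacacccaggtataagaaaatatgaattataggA
The next (chr12:56785601-56785900, plus strand) is the middle of the H3K4me1 tile of *HSD17B6* with the largest difference in favour of naive PSCs among the baits and partners. The last (chr12:57011101-57011400, plus strand) is the middle of the intronic *TAC3* tile with the largest difference in favour of primed PSCs.
HSD17B6 tile: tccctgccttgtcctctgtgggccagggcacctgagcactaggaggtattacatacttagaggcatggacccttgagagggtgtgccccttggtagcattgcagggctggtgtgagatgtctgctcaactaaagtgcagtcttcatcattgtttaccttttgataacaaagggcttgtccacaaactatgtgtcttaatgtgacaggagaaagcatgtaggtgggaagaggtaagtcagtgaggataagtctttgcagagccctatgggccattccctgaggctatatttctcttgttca
TAC3 tile: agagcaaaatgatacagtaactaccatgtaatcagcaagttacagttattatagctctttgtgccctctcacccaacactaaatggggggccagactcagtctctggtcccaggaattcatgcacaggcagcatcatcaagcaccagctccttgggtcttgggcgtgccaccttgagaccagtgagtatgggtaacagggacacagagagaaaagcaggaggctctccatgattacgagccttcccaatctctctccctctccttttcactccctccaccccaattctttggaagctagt

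The region had more contacts in naive PSCs, and the 6 baits shared this difference as a group but not one by one. The lists held 585 naive and 464 primed contacts of the region, a ratio of 1.26 (95% interval from counting error 1.12 to 1.42). Over all contacts of the lists the ratio was 0.891 (0.883 to 0.90). The member baits took part in 151 naive and 115 primed contacts, a ratio of 1.31 (1.03 to 1.67), and contacts that touched no member bait numbered 434 and 349. Of the pairs that either list held for the region, 257 or 32.4% were listed in both cell types (Wilson interval 29.3 to 35.8%). The share was larger with a looser match, since 78.1% of naive and 79.3% of primed contacts had a counterpart with both ends within 10 kb in the other list. *RPS26*, *NACA* and *ZBTB39* had at least 2 times as many contacts in naive PSCs, which held for 18.1% of the 4166 baits with 10 or more contacts in either list. *BAZ2A* had at least 2 times as many in primed PSCs, which held for 29.4% of those baits. No naive contact of the region spanned more than 500 kb and 15 primed contacts did, 4 of them from member baits. Contacts were called at a CHiCAGO score of at least 5, a score that weighs the reads of a pair against the background expected at its distance. Many contacts listed in only 1 cell type stood near that limit: 31 of the 78 naive contacts and 23 of the 42 primed contacts of this kind had a score under 6.

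**Figure D1:**
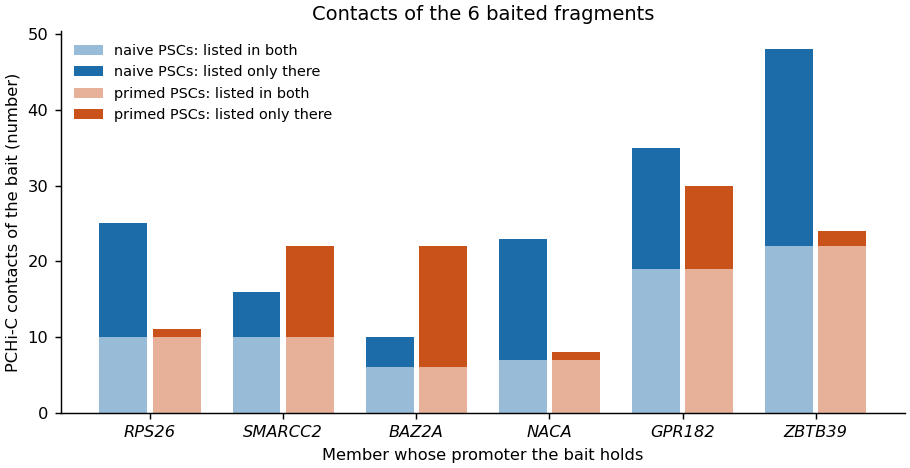
PCHi-C contacts of each member bait on chromosome 12 (bars, number) in naive PSCs (blue) and primed PSCs (orange), with pale parts for contacts listed in both cell types and dark parts for those listed in 1 only. *RPS26*, *NACA* and *ZBTB39* had few contacts of their own in primed PSCs (1, 1 and 2), whereas *SMARCC2* and *BAZ2A* had 12 and 16.

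The promoter of *ZBTB39* had the most contacts of the 6 in naive PSCs, and that of *GPR182* in primed PSCs. Its bait (57005305 to 57006827, minus strand) is 1523 bp long and holds the start of its only annotated transcript. It had 48 naive contacts and 24 primed contacts, 22 of them in both, so that all but 2 of the primed contacts were also listed in naive PSCs. The strongest partners lay in *HSD17B6*, which encodes a hydroxysteroid dehydrogenase, at 235 to 255 kb to the side of lower coordinates. The fragment from 56759375 to 56766732 gave 65 reads and a score of 35.93 in naive PSCs and 44 reads and a score of 17.45 in primed PSCs. The first of the short *HSD17B6* fragments printed above gave scores of 33.38 and 20.24, and the second gave 31.88 and 21.77, in naive and primed PSCs respectively. What was added in naive PSCs lay farther off on the same side: the 21 contacts of that side listed only in naive PSCs had a median distance of 334 kb, and the 16 listed in both had 246 kb. In naive PSCs 7 of the partners overlapped *BAZ2A*, 4 overlapped *NACA* and 2 each overlapped *ATP5F1B*, a subunit gene of the mitochondrial ATP synthase, and *PTGES3*, which encodes the HSP90 co-chaperone p23. In primed PSCs 1 partner overlapped *BAZ2A* and none overlapped the other 3.

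The bait of *GPR182* (56993767 to 56999164, plus strand), 9.6 kb from that of *ZBTB39*, held all 3 of its annotated starts and had 35 naive and 30 primed contacts. Although these numbers were close, the partners were not the same. Contacts listed only in naive PSCs numbered 16, and the 12 of them on the side of lower coordinates lay 241 to 385 kb away, with 7 partners in *BAZ2A*. Contacts listed only in primed PSCs numbered 11, and the 10 of them on that side lay 160 to 251 kb away. Of these 10, 1 lay in *PRIM1*, 3 in *HSD17B6* and 6 in intergenic fragments on the *GPR182* side of *HSD17B6*. Among the contacts listed in both, every partner from 239 to 275 kb scored higher in naive PSCs and every partner from 156 to 233 kb scored higher in primed PSCs, while the nearest on that side, at 134 kb, scored 6.58 in naive and 5.76 in primed PSCs. The *PRIM1* fragment from 56732592 to 56738412, in the gene of the small primase subunit, scored 18.52 in naive and 9.03 in primed PSCs. The intergenic fragment from 56840394 to 56841118 scored 8.23 in naive and 18.57 in primed PSCs. The fragment of *HSD17B6* between them (56759375 to 56766732) scored 25.02 and 25.26. *GPR182* and *ZBTB39* shared 30 partners in naive PSCs, which was 85.7% of those of *GPR182* and 62.5% of those of *ZBTB39*. In primed PSCs they shared 19, or 63.3% and 79.2%. Their baits are neighbours, so their partners are not independent.

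*NACA* had 23 naive and 8 primed contacts, 7 of them in both. Its bait (56726886 to 56732553, minus strand) held 2 of 26 annotated starts, and the RefSeq start lay in the next fragment, which was not baited. These contacts are therefore those of a fragment with alternative starts of the gene, which also overlaps *PRIM1*. Which start they serve was not tested. All but 1 of the naive contacts reached towards higher coordinates. Partners crowded around *GPR182*, *ZBTB39*, *TAC3* and *NEMP1*, at 258 to 346 kb. The fragment with the promoters of *TAC3*, which encodes the precursor of neurokinin B, and *MYO1A*, which encodes a brush border myosin, was the strongest partner in both cell types, with 21 reads and a score of 27.46 in naive PSCs and 18 reads and a score of 17.64 in primed PSCs. The *GPR182* bait was second in naive PSCs, with 48 reads and a score of 20.89, and had 30 reads and a score of 7.23 in primed PSCs. Of 4 partners that overlapped *ZBTB39* in naive PSCs, including its bait with a score of 12.99, only the fragment shared with *GPR182* was listed in primed PSCs.

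*RPS26* had 25 naive and 11 primed contacts on chromosome 12, 10 of them in both. The bait (56041004 to 56044317, plus strand) held all 4 annotated starts, and every partner lay towards lower coordinates. The contacts in both cell types lay at a median of 219 kb, with the strongest at the promoter of the J-domain co-chaperone gene *DNAJC14* (scores of 15.92 and 13.44). The 15 contacts listed only in naive PSCs lay at a median of 62.5 kb. In naive PSCs 7 partners overlapped *RAB5B*, a gene of early endosomes, 4 overlapped *IKZF4*, the gene of a zinc finger transcription factor, and 2 overlapped *SUOX*, the sulfite oxidase gene. In primed PSCs the numbers were 2, 0 and 0. A single contact left the chromosome: in both lists the *RPS26* bait was joined to a fragment of chromosome 20 (37314007 to 37321971) with 4 reads, at scores of 16.46 and 14.49. *RPS26* has processed copies elsewhere in the genome, and whether reads were shared with a copy was not tested.

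*SMARCC2* and *BAZ2A* had fewer listed contacts in naive PSCs, against the region, although at *SMARCC2* the difference was within counting error. The naive over primed ratio was 0.727 (95% interval from counting error 0.382 to 1.38) for *SMARCC2* and 0.455 (0.215 to 0.960) for *BAZ2A*. The *SMARCC2* bait (56187539 to 56192946, minus strand, 9 of 15 annotated starts) had 16 naive and 22 primed contacts, 10 of them in both. Of the shared contacts, 7 formed a block over *ESYT1* and *ZC3H10*, 60 to 72 kb away, and each of the 7 scored higher in naive PSCs, for example 16.69 against 7.15 for the fragment from 56119687 to 56122686. All 12 contacts listed only in primed PSCs reached to the other side, at 41.5 to 545 kb, and 4 of them ended in *BAZ2A*. These primed contacts were weak, with scores of 5.08 to 7.45. With the limit raised to a score of 7 the order turned, to 9 naive and 6 primed contacts.

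The *BAZ2A* bait (56629083 to 56636917, minus strand, 7 of 17 annotated starts) had 10 naive and 22 primed contacts, 6 of them in both. In naive PSCs 3 of the 10 reached towards lower coordinates, and in primed PSCs 14 of the 22. The 4 contacts listed only in naive PSCs were those with the baits of *NACA*, *GPR182* and *ZBTB39* and with a fragment inside *ZBTB39*. The 16 listed only in primed PSCs included fragments with the promoters of *SMARCC2*, *CNPY2*, *NABP2* and *RNF41*, *COQ10A* and *CS*, and *TIMELESS* on one side, and of *NAB2* and *NEMP1*, *STAT6* and *LRP1*, and *NDUFA4L2* on the other. *CS* encodes citrate synthase, *TIMELESS* a factor of the replication fork and *STAT6* the transcription factor of interleukin-4 signalling. Baited fragments made up 15 of the 22 primed partners and 6 of the 10 naive partners. The strongest contact in primed PSCs joined *BAZ2A* to the promoter of *RBMS2*, an RNA-binding protein gene, at 111 kb, with 161 reads and a score of 13.39, against 79 reads and a score of 7.95 in naive PSCs. At a score of at least 7 the counts were 4 and 8, and at a score of at least 10 they were 3 naive and 1 primed contacts, so that the order turned with the strictest limit.

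**Figure D2:**
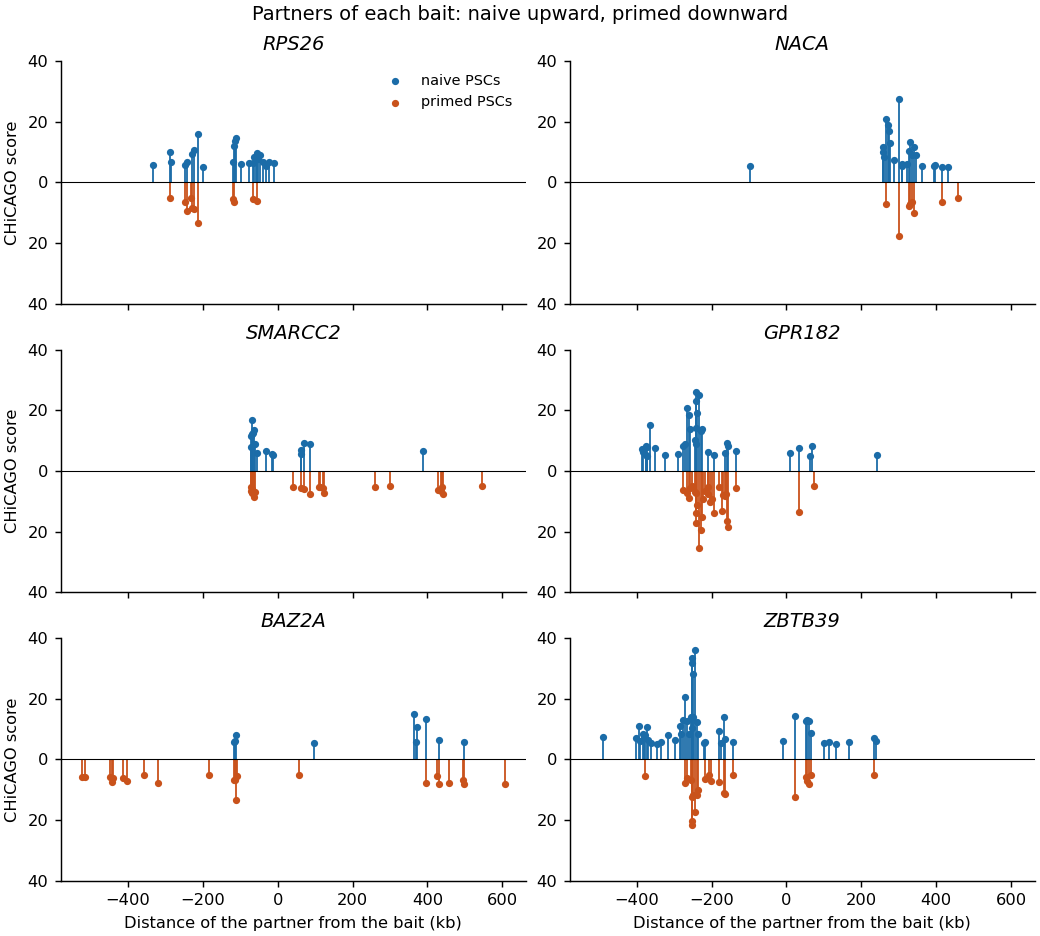
CHiCAGO score of each contact (vertical axis, naive PSCs in blue upward and primed PSCs in orange downward) against the signed distance of the partner from the bait in kb, 1 panel for each member. *ZBTB39* and *GPR182* shared a band of partners near 240 kb on the side of lower coordinates, and *NACA* had most of its naive partners between 258 and 346 kb on the other side. Partners beyond 400 kb were seen for *SMARCC2* in primed PSCs only, for *ZBTB39* in naive PSCs only, and for *BAZ2A* and *NACA* in both.

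Of the 15 pairs of member baits, 6 were joined in naive PSCs and 2 in primed PSCs. *NACA* with *GPR182* was the pair listed in both. *BAZ2A* with *GPR182* (29 reads, score 15.09), *BAZ2A* with *ZBTB39* (29 reads, score 10.73), *BAZ2A* with *NACA* (64 reads, score 5.48), *NACA* with *ZBTB39* (42 reads, score 12.99) and *GPR182* with *ZBTB39* (307 reads, score 5.89) were listed only in naive PSCs. *SMARCC2* with *BAZ2A*, at 443 kb, was listed only in primed PSCs, with 24 reads and a score of 7.45. Thus among the member baits alone, *BAZ2A* was joined to *NACA*, *GPR182* and *ZBTB39* in naive PSCs and to *SMARCC2* in primed PSCs. Its contacts as a whole did not change sides in this way. Towards higher coordinates, where *GPR182* and *ZBTB39* lie, it had 7 naive and 8 primed contacts. Towards lower coordinates it had 3 and 14. In all, 3 partner fragments were contacted by 4 members. The fragment of *TAC3* and *MYO1A* (57025311 to 57033256) was contacted by *BAZ2A*, *NACA*, *GPR182* and *ZBTB39* in both cell types. A pair of neighbouring fragments in *NEMP1*, an inner nuclear membrane protein gene (57059213 to 57060432 and 57060433 to 57069557), had 3 of these 4 members in primed PSCs, and 3 and 4 in naive PSCs.

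Hi-C, which has no capture step, gave another view of these pairs. In the study's methods the capture started from Hi-C library DNA, so Hi-C and PCHi-C are not taken here as independent of each other, and these Hi-C values are given as a description. Di-tags, the sequenced ligation products, were counted per pair of 100 kb bins and divided by the chromosome 12 mean at the same distance. Over the region, at distances of 100 to 500 kb and in 99 pairs listed in both files, there were 6797 naive and 8131 primed di-tags, which was 0.411 and 0.408 of that mean. Their ratio was 1.01 (95% interval from counting error 0.975 to 1.04), so Hi-C showed no excess in naive PSCs at this scale. Chromosome 12 took 4.99% of naive and 5.03% of primed autosomal di-tags within 1000 kb. The bins of *SMARCC2* and *BAZ2A* were joined by 30 naive and 105 primed di-tags, or 0.458 and 1.25 of the mean, a naive over primed ratio of 0.367 (0.244 to 0.550). The bins of *BAZ2A* and *ZBTB39* were joined by 85 naive and 67 primed di-tags, a ratio of 1.59 (1.15 to 2.19). For *BAZ2A* with *GPR182* they numbered 70 and 57, a ratio just under 1.5 (1.06 to 2.12). *NACA* with *ZBTB39* gave 135 and 136 di-tags and a ratio of 1.21 (0.954 to 1.54), which does not differ beyond counting error. *BAZ2A* with *NACA* and *GPR182* with *ZBTB39*, both listed by PCHi-C only in naive PSCs, had ratios of 1.04 (0.852 to 1.27) and 1.06 (0.862 to 1.29). *RPS26* with *SMARCC2*, which neither PCHi-C list held, had 219 and 180 di-tags and a ratio of 1.44 (1.18 to 1.75). A change of at least 1.5 times in favour of naive PSCs was seen in 1 of the 8 member bin pairs within 500 kb and in 9.68% of 6230 such pairs on chromosome 12. In favour of primed PSCs the numbers were 1 of 8 and 6.39%. Summed over 5 bins to the side of lower coordinates, the *BAZ2A* bin had 441 naive and 776 primed di-tags, a ratio of 0.686 (0.610 to 0.771), and over 5 bins to the other side 428 and 440, a ratio of 1.17 (1.03 to 1.34). The *SMARCC2* bin had a ratio of 1.27 (1.10 to 1.47) to the side of lower coordinates, where its block of partners lay, and of 0.873 (0.782 to 0.976) to the other side. The *RPS26* bin had 272 and 352 di-tags on the side where its partners lay, a ratio of 0.933 (0.796 to 1.09). With 1 library per cell type these intervals hold no replicate error, and a bin holds other promoters beside the member.

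**Figure D3:**
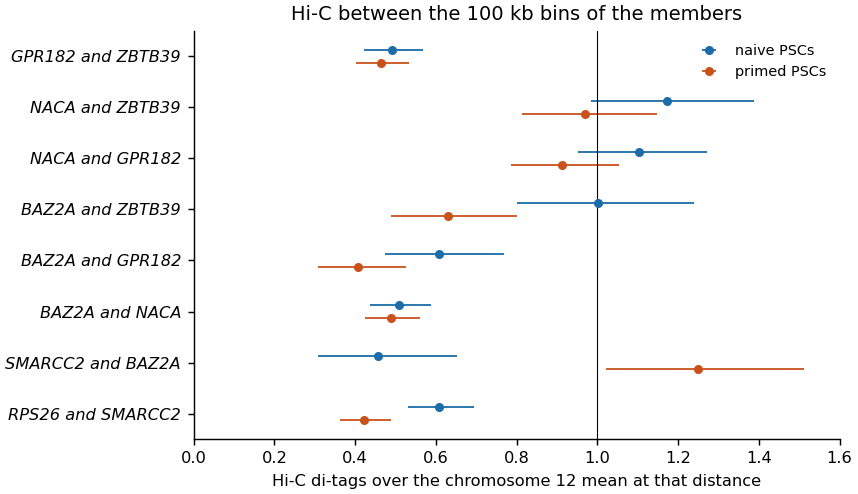
Hi-C di-tags between the 100 kb bins of the members, divided by the chromosome 12 mean at that distance (horizontal axis, ratio), in naive PSCs (blue) and primed PSCs (orange), with 95% intervals from counting error, for the 8 pairs within 500 kb. *SMARCC2* and *BAZ2A* stood at 0.458 in naive and 1.25 in primed PSCs, and *BAZ2A* and *ZBTB39* at 1.00 and 0.631.

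H3K4me1 was measured independently of the contacts and could be tested. The libraries come from bulk cells, so fewer cells with the mark and less mark per cell cannot be told apart. Of the 6 baits, those of *SMARCC2* and *NACA* had more H3K4me1 in naive PSCs, and no difference passed the test at the others. Values are the mean log2 RPM (reads scaled to the size of the library) over the 500 bp tiles of a fragment. The *SMARCC2* bait had 0.10 and -0.04 in the 2 naive libraries and -0.82, -1.38 and -1.31 in the 3 primed libraries. The groups did not overlap, and naive PSCs were higher by 1.20 ± 0.36 (SE, log2 scale, limma adjusted p = 0.022). The *NACA* bait had -1.37 and -1.18 in naive and -3.23, -2.85 and -2.87 in primed libraries. It was higher in naive PSCs by 1.71 ± 0.36 (limma adjusted p = 0.00186), and again the groups did not overlap. The first and second primed values stood close to that of a tile without reads in their libraries (-3.30 and -3.13). That value depends on the depth of a library and ran from -2.91 to -4.89, which bears on all low fragments in a fit without a filter. The *BAZ2A* bait had the highest level of the 6, with 0.48 and 0.33 in naive and 0.70, 0.37 and 0.30 in primed libraries. Its difference was -0.05 ± 0.37 (limma adjusted p = 0.967), and the groups overlapped. The *RPS26* bait had -0.44 and -0.91 in naive and -0.16, -0.47 and -0.54 in primed libraries, with a difference of -0.28 ± 0.36. The *GPR182* bait had low levels throughout, -2.13 and -1.98 in naive and -2.66, -2.05 and -2.36 in primed libraries. At the *ZBTB39* bait, which spans 3 tiles, the naive libraries stood at -0.61 and -2.09 and the primed libraries at -0.75, -0.73 and -1.72, so the spread within a cell type was wider than the difference of -0.28 ± 0.44. Adjusted p-values at these 3 baits were 0.704, 0.675 and 0.770 for *RPS26*, *GPR182* and *ZBTB39* (limma). These values come from the fit over all 88413 fragments without a filter on low values, in which 13.2% of fragments were higher in naive and 8.19% in primed PSCs. The fit limited to fragments above 0 in at least 2 libraries held 8198 fragments and only the bait of *BAZ2A* among the 6. The call at the *SMARCC2* bait was lost in 5 of 8 alternatives, among them those without the first naive library (adjusted p = 0.192), the second naive library (0.114) or the third primed library (0.0874), and its adjusted p-values ran from 0.00295 to 0.192, whereas that at the *NACA* bait held in all 8 (0.000177 to 0.0351).

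**Figure D4:**
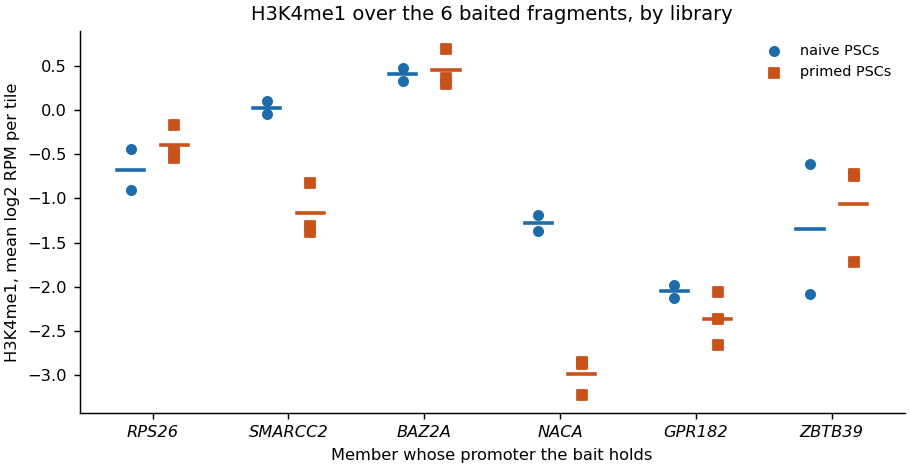
H3K4me1 over each member bait (vertical axis, mean log2 RPM of its 500 bp tiles), with 1 point per library, circles for the 2 naive and squares for the 3 primed libraries, and a line at each group mean. The groups were apart at *SMARCC2* and *NACA* and overlapped at the other 4 baits.

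The partner fragments had more H3K4me1 in naive PSCs, whether the contact was listed in naive or in primed PSCs. Without the filter on low values, 41 of the 131 partners were higher in naive PSCs and 0 in primed PSCs (limma). By where the contact was listed, these were 16 of 52 partners contacted only in naive PSCs, 10 of 23 contacted only in primed PSCs and 15 of 56 contacted in both. The median difference over all partners was 0.70, against 0.06 over all fragments tested and 0.62 over the 290 fragments of the region, so the partners stood close to the region as a whole. Over the region 73 fragments (25.2%) were higher in naive and 3 in primed PSCs. Among the 137 baits and partners, 24 passed the filter on low values, and of these 8 were higher in naive and 0 in primed PSCs, beside 31.2% and 21.6% of all 8198 fragments of that fit. A fragment can pass this filter through the naive libraries alone, so the 8 of 24 do not stand for all members. The median difference of the 24 was 0.65, against 0.25 over all fragments of that fit. In the fit without the filter, 43 of the 137 were higher in naive PSCs, and fewer were when either naive library was left out.

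**Figure D5:**
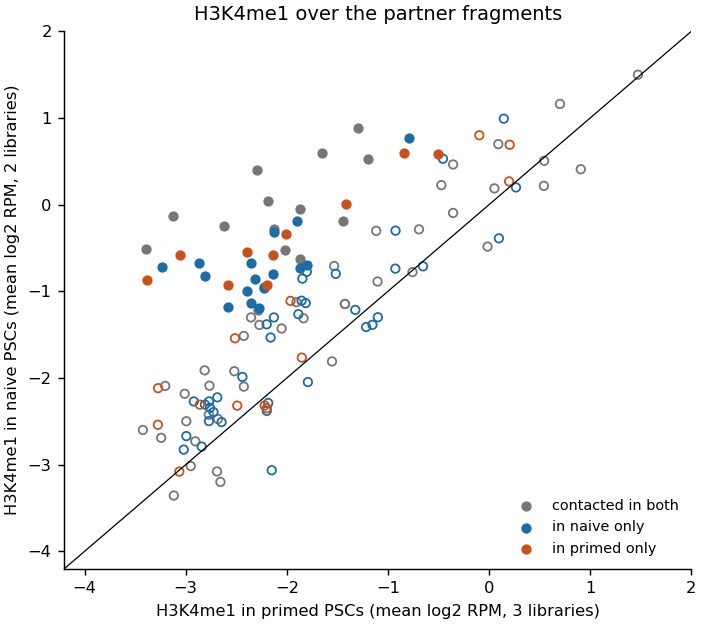
Mean H3K4me1 (log2 RPM) of the 131 partner fragments in primed PSCs (horizontal axis, 3 libraries) and naive PSCs (vertical axis, 2 libraries), coloured by the cell type in which a member contacted them, with filled points for an adjusted p under 0.05 and a line of equality. All 41 filled points lie above the line, and they include partners of each colour.

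The 5 largest differences among the filtered fragments lay in different neighbourhoods. All 5 passed that filter through the naive libraries alone, so their tests are taken from the fit without the filter. Next to *ESYT1* and *ZC3H10*, the fragment from 56123400 to 56125131, a partner of *SMARCC2* in both cell types, had 0.24 and 0.56 in naive and -2.04, -2.70 and -2.15 in primed libraries. It was higher in naive PSCs by 2.70 ± 0.37. Its neighbour from 56122687 to 56123399 was higher by 2.25 ± 0.37. *BAZ2A* contacted an intergenic fragment beside *RBMS2* (56517431 to 56521566) in both cell types. There the naive libraries had 0.84 and 0.94 and the primed libraries -1.03, -1.55 and -1.30, a difference of 2.18 ± 0.36. The *HSD17B6* intron from 56766733 to 56769938, contacted by *GPR182* and *ZBTB39*, was higher in naive PSCs by 1.72 ± 0.36, and the fragment with a promoter of *DGKA* and *PYM1* (55930298 to 55935092), contacted by *RPS26* in naive PSCs, by 1.56 ± 0.37. In the filtered fit without the first naive library, the difference at the fragment of *DGKA* and *PYM1* was 1.45. With the highest tile in place of the mean, the difference was only 0.77 at the fragment beside *RBMS2* and 0.54 at that of *DGKA* and *PYM1*. Among the filtered fragments, the count of 8 higher in naive PSCs became 4 without the first naive library and 13 without the first primed library. No bait or partner passed in the other direction in that fit, whereas edgeR on recovered reads gave 3 and centring the libraries on their medians gave 1.

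Single tiles placed these differences more closely. A tile was tested if it was above 0 in at least 2 libraries, and the tiles named here passed through the libraries of 1 cell type alone, so their differences are a description with no test. Of the 334 tested tiles in the baits and partners, 85 or 25.4% were higher in naive and 16 or 4.79% in primed PSCs. Over all 465156 tiles tested the shares were 26.1% and 25.9% (limma), and over the 818 tested tiles of the region 33.0% and 8.44%. Without the first or the second naive library 51 and 45 of the 334 were higher in naive PSCs, and 10 and 7 in primed PSCs. The *HSD17B6* tile printed above (56785501 to 56786000) had 1.41 and 1.42 in naive and -3.30, -2.98 and -2.73 in primed libraries. It was higher in naive PSCs by 4.42 ± 0.57, and -3.30 is the value of a tile without reads in that primed library. This fragment was contacted by *ZBTB39* in naive and by *GPR182* in primed PSCs. Of the 5 tiles with the largest differences, 3 more lay in the next fragment of *HSD17B6*, contacted by *GPR182* in primed PSCs only. The other lay in *STAT6* (57100501 to 57101000) and was higher by 4.02 ± 0.61. In the opposite direction, 4 of the 5 leading tiles were consecutive over *TAC3* (57010501 to 57012500), inside a fragment that *NACA* contacted in naive PSCs only. There the tile from 57011001 to 57011500 had -1.12 and -2.75 in naive and 0.94, 0.72 and 1.02 in primed libraries, a difference of -2.83 ± 0.59. The remaining one lay in *STAC3* (57245001 to 57245500), with a difference of -2.31 ± 0.64. Within the baits, 4 of 6 tested *SMARCC2* tiles were higher in naive PSCs, and none of 15 in *BAZ2A* or 3 in *RPS26*. The only *NACA* tile that passed the filter did so through the naive libraries alone, so its difference is a description as well. A tile can pass this filter through 1 cell type, so these counts do not stand for all tiles of a bait. None of the 4 *SMARCC2* tiles passed without the second naive library. No tile of the *GPR182* or *ZBTB39* bait passed the filter. The *NACA* tile (56727001 to 56727500) had 0.36 and 0.42 in naive and -3.30, -2.98 and -1.93 in primed libraries, a difference of 3.12 ± 0.58. This tile and the *SMARCC2* tile with the largest difference (56191501 to 56192000) held, on one of the strands, a short run of bases that is part of the Alu repeat, as did 17.7% of the tested tiles of the region. The effect of repeats on the read numbers was not tested.

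Other genes of the members' complexes did not share 1 direction of contacts. These lists were compared with all 15982 baited fragments, of which 45.2% had more contacts in naive and 42.5% in primed PSCs, with a median difference of 0. For the BAF complexes, 23 of 30 genes had a baited fragment. Of these 7 had more contacts in naive and 12 in primed PSCs, with a median difference of -1 contact. *PBRM1* had 1 naive and 21 primed contacts, *ACTL6A* 7 and 16, *BRD7* 30 and 21, and *SS18* 7 and 0. H3K4me1 was higher in naive PSCs at 5 of the 23 baits and in primed PSCs at 0 (limma without the filter), beside 13.2% and 8.19% of all fragments in that fit. Beside *SMARCC2*, these were the core subunit *SMARCC1* (1.23 ± 0.37), the ATPase *SMARCA4* (1.25 ± 0.37), *BRD9* (1.08 ± 0.37) and *PBRM1* (1.02 ± 0.36). For the ISWI complexes, to which *BAZ2A* belongs, 9 of 13 genes had a bait, 3 with more contacts in naive and 6 in primed PSCs. *CECR2* had 31 naive and 44 primed contacts, and *CHRAC1* had 5 and 0. H3K4me1 was higher in naive PSCs at both of these and at none of the other 7 ISWI baits.

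Of the 72 baits of the region, 42 had more contacts in naive PSCs, 24 had more in primed PSCs and 6 had equal numbers, and the gene groups of the region are read beside these counts. Of 7 translation genes with a bait, 5 had more contacts in naive and 1 in primed PSCs, led by *NACA* and *RPS26*, followed by *PYM1*, an exon junction complex factor, with 15 and 9. All 6 genes of energy metabolism had more in naive PSCs, with *SUOX* at 9 and 1 and *GLS2*, a glutaminase gene, at 13 and 6 as the widest. The others differed by only 1 or 2 contacts. The genes of the cell cycle and DNA, *SMARCC2* and *BAZ2A* included, were split 3 to 3, with *TIMELESS* at 19 and 9 and *CDK2* at 14 and 7 on the naive side. Genes of transcription and signalling were split 6 to 5, from *ZBTB39* at the naive end to *DDIT3* and *MBD6*, which share 1 bait with 3 naive and 12 primed contacts. Tissue-restricted genes were split 7 to 6, with *IL23A* at 15 and 6 and *SLC39A5* at 8 and 14. Several of these genes share a bait or lie next to each other, and the region was chosen for its contacts, so the splits are a description. Baits are counted here for each gene, so a bait shared within a list counts again. *PA2G4* and *RPL41* share 1 such bait, which had more H3K4me1 in naive PSCs. Counted in this way, H3K4me1 was higher in naive PSCs at 5 of 10 translation baits, 1 of 8 cell cycle and DNA baits and 1 of 14 transcription and signalling baits. It was higher at none of the 7 energy metabolism and 17 tissue-restricted baits, and no bait of these lists was higher in primed PSCs. Over all fragments of that fit 13.2% were higher in naive PSCs, and over those of the region 25.2%, so most of these lists lay near or below the region.

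The H3K4me1 libraries differed in depth, which was recovered from the value of 1 read in each. The naive libraries held about 21785000 and 6744000 reads and the primed libraries 8854000, 7892000 and 26597000. Tiles without reads made up 15.3 to 52.3% of all tiles, most in the second naive library. Cell state was checked at baited promoters of marker genes. Of 4 naive markers with a bait, *DPPA5* (2.78 ± 0.37) and *DPPA3* (1.73 ± 0.35) had more H3K4me1 in naive PSCs by limma, while *KLF17* and *SUSD2* did not pass. None of the 4 primed markers with a bait passed, with differences of -0.61 to -0.03.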

How the data were processed

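Contacts came from PCHi-C lists that the authors deposited per cell type, with the 2 replicates combined by CHiCAGO, a read count per contact, and a CHiCAGO score of at least 5. Hi-C di-tag counts per 100 kb bin pair were as deposited by the authors, with low pairs left out of the naive file. H3K4me1 CUT&RUN values were deposited by the authors as log2 RPM in 6176584 tiles of 500 bp. Per the submitters' processing notes, reads were trimmed with Trim Galore (0.4.5 or 0.5.0) and aligned with Bowtie2 (2.2.7 or 2.3.2) to GRCh38.

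Members were matched to baits through GENCODE release 44 promoters. Tile values were averaged per fragment and tested with limma (3.58.1, R 4.3.3, with a mean-variance trend) across all fragments or tiles with a value above 0 in at least 2 libraries, at a Benjamini-Hochberg adjusted p of 0.05; the fit without that filter covers all fragments. Whole reads were recovered from 100% of the values and tested with edgeR (4.0.16) as an alternative. Contact ratios carry intervals from counting error only, with no test. The tests were checked on simulated data. Beside the members, the text names up to 4 genes per list and, per direction, up to 5 fragments with the largest H3K4me1 difference among those that passed without overlap between the cell types; tiles were named in the same way. Members and lists were chosen with earlier results of these data known. The alternatives without the filter on low values were added after seeing the data. NANOG, SOX2 and input ChIP-seq files were not used here.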

Additional observations from a re-analysis of the deposited data

How the results depend on the processing

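Contacts depended on the score limit. At a score of at least 7 and of at least 10, the naive over primed ratio of the region was 1.51 and 1.62. The ratio over all contacts of the lists at these limits is not given here, so the rise is not shown to be particular to the region. With the same number of top-scoring contacts from each cell type, the ratio of the region was 1.41. At a score of at least 10 the ratio of the member baits was 1.92 and the share listed in both cell types 28.6%, and with ends matched within 10 kb that share was 78.6%. The ratio of *SMARCC2* turned to 1.5 at a score of at least 7, and that of *BAZ2A* to 3.0 at a score of at least 10; the cause was not tested. The Hi-C ratio of the region ran from 0.997 to 1.02.

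Without the filter on low values, which tests more fragments, 11656 fragments were higher in naive and 7242 in primed PSCs, and 43 baits and partners were higher in naive PSCs. Using the highest tile of each fragment left 3 baits and partners higher in naive PSCs, while edgeR gave 3 and centring 1 higher in primed PSCs. Centring gave 2429 and 2384 fragments and edgeR 2479 and 2509, naive and primed, against 2557 and 1770. Leaving out 1 library gave 1616 to 2937 fragments higher in naive and 1226 to 2173 in primed PSCs, with 4 to 13 and 0 to 0 baits and partners. Without the filter the ranges were 5131 to 13937 and 1861 to 8965, with 20 to 51 baits and partners higher in naive PSCs. For tiles, the limit of 1 gave 24885 and 29777 overall and 13 and 4 in baits and partners, since fewer tiles were tested. Leaving out 1 library gave 65896 to 134820 and 88520 to 137481 tiles, and 45 to 98 and 7 to 17 in baits and partners.

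Whether replicate numbers pair the H3K4me1 libraries could not be decided. The deviations of the 2 naive libraries from their mean mirror each other, so their correlations with a primed library differ only in sign. The deviations of libraries with the same number had correlations over fragments of 0.0670 and 0.0392 for numbers 1 and 2, with 2 pairs. With the number as a replicate block, 2099 and 1525 fragments were higher in naive and primed PSCs, 10625 and 7830 without the filter, and 99427 and 105616 tiles. Under this block the *SMARCC2* bait had an adjusted p of 0.0907 by limma.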
